A study of Mus musculus with 6 samples.

Results

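A set of 10 matrix metalloproteinase (MMP) and tissue inhibitor of metalloproteinase (TIMP) genes were described in RNA-seq libraries of cocultured CD8T cells. They were *Mmp8*, *Mmp9*, *Mmp10*, *Mmp12*, *Mmp13*, *Mmp14*, *Mmp19*, *Mmp25*, *Timp1* and *Timp2*, which are 10 of the 54532 genes in the count table. The genes were selected on their names, with their fold changes in this same comparison already known. Their own differences between the groups are therefore given as a description, with a standard error (SE) and no test.

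MMPs are zinc-dependent endopeptidases that are made as inactive proenzymes and cleave collagens, elastin, proteoglycans, cytokines and cell surface proteins. Secreted members act outside the cell, membrane-type members stay on the cell surface, and TIMPs block the active site of most of them. In leukocytes, *Mmp8*, *Mmp9* and *Mmp25* are known as granule or surface enzymes of neutrophils, *Mmp12* is the metalloelastase of macrophages, and *Mmp9* also serves the migration of T cells and dendritic cells.

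Primary mouse CD8T cells were cocultured with cells that had been left untreated (control, 3 libraries) or treated with DB2313 (3 libraries). DB2313 is an inhibitor of the transcription factor *Spi1* (PU.1), which myeloid cells need to develop. The labels name the cocultured cells as DC cells, whereas the study describes peritoneal macrophages activated with interferon-γ. According to the study's methods, the T cells came from mouse spleen and had been activated with beads against CD3 and CD28 in both groups. The labels give no animal age or strain, and nothing in the sources used here ties the 3 libraries of a group to separate animals or cultures, so the spread between them may be technical.

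Library totals ran from 16611975 to 18596217 counts. Of 14883 genes tested with edgeR's quasi-likelihood test, 204 (1.37%) were called higher with DB2313 and 789 (5.3%) lower at an adjusted p under 0.05 and an absolute log2 fold change of at least 1. With library sizes set by T cell marker genes instead, the numbers were 51 higher and 2551 lower. The libraries held more than T cells. The marker counts that follow are at the adjusted p alone, which 20.8% of all tested genes passed as higher and 24.6% as lower. Summed macrophage markers took 1.22 to 1.25% of all counts in the control libraries and 0.487 to 0.4995% in the DB2313 libraries, with 20 of 24 tested markers lower, 3 higher and *Vsig4* at 0 throughout. *C1qb*, a complement gene of macrophages, had a log2 fold change of −0.81. Neutrophil markers took 0.168 to 0.169% and 0.0445 to 0.0480%, with 10 of 11 lower and 1 higher (log2 fold change 1.39, past both thresholds). Among the lower were *S100a9* (log2 fold change −1.72) and *S100a8* (−2.49). Mast cell markers fell in 3 of 4 tested genes, from 0.0607 to 0.0618% down to 0.0244 to 0.0249%, among them *Cpa3* (−1.31) and *Tpsb2* (−5.40). Dendritic markers took 0.399 to 0.403% and 0.288 to 0.291%, with 8 of 10 lower and 1 higher, *Ccl22* at −0.88 and *Ccr7* at −0.10. *Ccr7* no longer passed the adjusted p with library size scaling (−0.0081) or upper quartile scaling (−0.039). All 20 T cell markers rose, from 0.341 to 0.343% up to 0.552 to 0.553%, including *Lck* (0.64) and *Trbc2* (0.54), and so did all 5 granule genes of myeloid progenitors, including *Mpo* (0.95) and *Elane* (1.13). Of 7 tested B cell markers 4 rose and 1 fell, with *Cd79b* at 0.46 (−0.13 with library sizes set by T cell markers). *Cd79a* was at 0.63 (0.031 and no longer past the adjusted p with that scaling). Of 6 tested stromal markers 2 rose, of which 1 passed both thresholds (log2 fold change 2.43). *Pecam1* was at 0.15 (−0.45 with T cell marker scaling) and *Col1a2* at −0.056 (adjusted p = 0.897, edgeR). The part that cell makeup played in the MMP and TIMP values was not tested, and in these libraries fewer cells of a type and less RNA per cell cannot be told apart.

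The 10 genes differed in both directions. Together they took 0.113 to 0.115% in the control libraries and 0.138 to 0.142% of all counts in the DB2313 libraries. *Mmp10*, *Mmp12*, *Mmp13* and *Timp2* were higher with DB2313, and *Mmp8*, *Mmp9*, *Mmp14*, *Mmp19*, *Mmp25* and *Timp1* were lower. Levels are given as CPM, read counts scaled to a common library size with TMM factors. In no gene did the CPM values of the groups overlap, which also held for 53.1% of all genes tested. *Mmp10* and *Mmp13* were past the fold threshold as higher, and *Mmp9*, *Mmp14*, *Mmp25* and *Timp1* as lower. As the genes were selected with this contrast known, no adjusted p is given for them. Nothing is read from the lack of overlap or from these fold changes against the background. The median log2 fold change of the 10 genes was −0.50, and that of all tested genes was 0.019. The member nearest to the fold threshold on its outer side was *Mmp25* (−1.06), and on the inner side *Mmp19* (−0.72) and *Mmp12* (0.68). With library sizes set by the T cell markers the value of each of the 10 was lower. *Mmp8* was then at −0.87, *Mmp9* at −3.67, *Mmp14* at −2.57, *Mmp25* at −1.65, *Timp1* at −2.00 and *Mmp19* at −1.32, which is past the fold threshold.

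**Figure D1:**
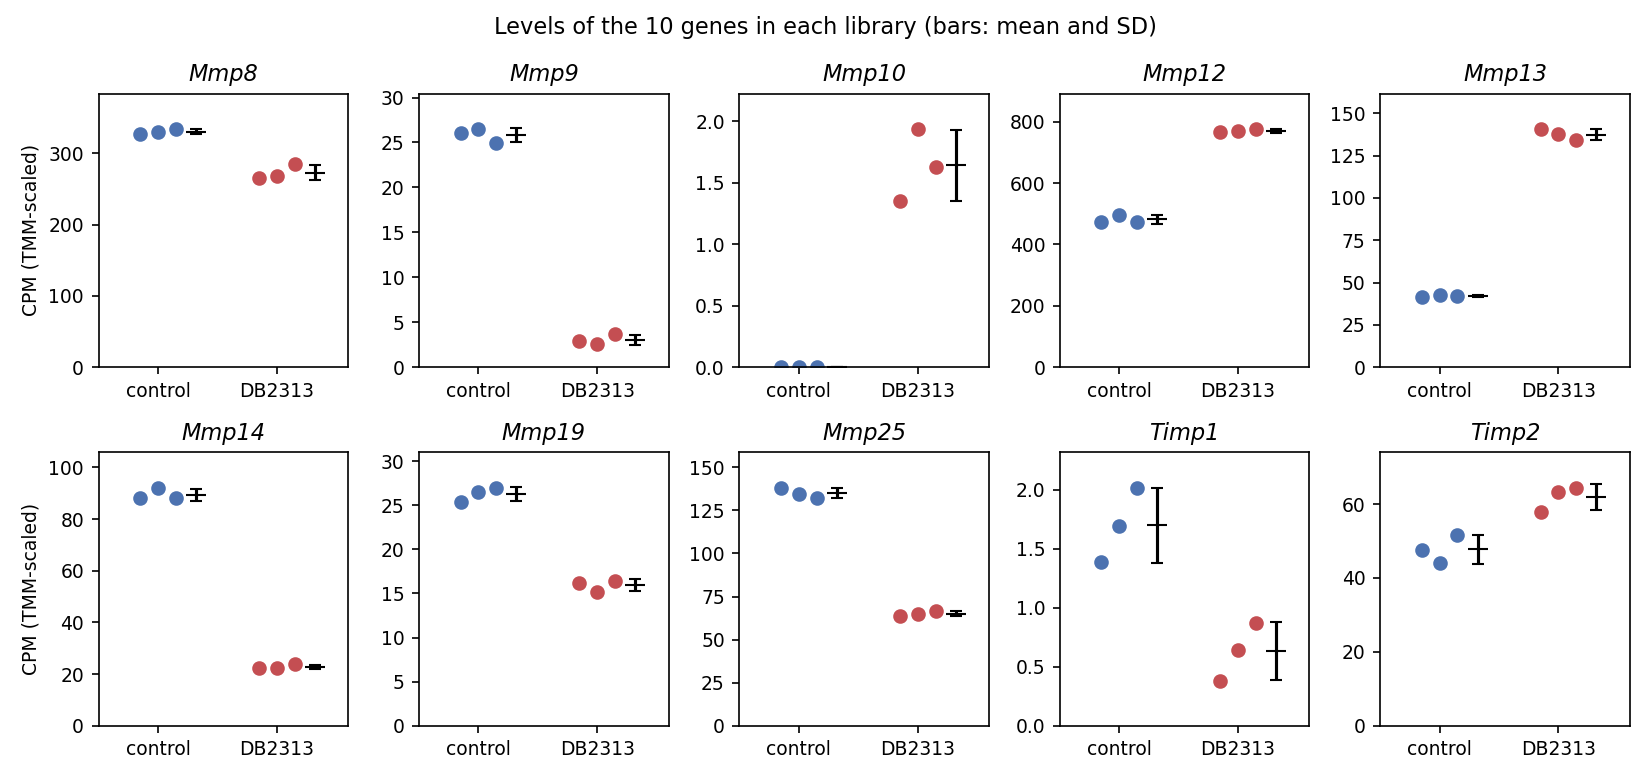
Level of each of the 10 genes in each library in CPM, 1 panel per gene with its own linear axis from 0; points are single libraries and bars the mean and SD of the 3 libraries of a group. *Mmp10* lies at 0 in the 3 control libraries, *Mmp9* drops from 25.9 to 3.05 CPM on average, and the points of the groups overlap for none of the 10.

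Among the collagenases, *Mmp8* and *Mmp13* differed in opposite directions. *Mmp8*, the collagenase of neutrophil granules that cuts fibrillar collagens, was read at 5896, 5677 and 5467 counts in the control libraries and at 4916, 4567 and 5246 with DB2313. The DB2313 libraries all lay lower. Its level went from 330.3 ± 3.60 CPM (mean ± SD, n = 3) to 273.0 ± 10.5 CPM, a log2 fold change of −0.28 (SE 0.035). *Mmp13*, known as collagenase 3, is a broad collagenase of cartilage and bone that macrophages can make too. It was read at 750, 736 and 685 counts in the control libraries and at 2596, 2349 and 2465 with DB2313. All 3 DB2313 libraries were far above the controls. The mean level was 3.27-fold higher with DB2313, 137.4 ± 3.29 against 42.1 ± 0.661 CPM, with a log2 fold change of 1.71 (SE 0.045).

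The gelatinases cut denatured collagen and type IV collagen of basement membranes. *Mmp9*, or gelatinase B (chr2:164940780-164955850), had the lowest fold change of the 10 genes. Its counts were 471, 455 and 409 in the control libraries and 54, 44 and 67 with DB2313. The lowest control library held several times the counts of the highest DB2313 library. *Mmp9* averaged 25.9 ± 0.775 CPM in the control group and 3.05 ± 0.542 CPM with DB2313, 8.48-fold lower (log2 fold change −3.08, SE 0.12). The other gelatinase, *Mmp2*, was not among the 10 genes and was lower as well. *Mmp2* had 611, 495 and 531 counts against 128, 80 and 76, and fell by 2.59 on the log2 scale (SE 0.13, adjusted p = 5.67e-14, edgeR quasi-likelihood test with Benjamini-Hochberg adjustment).

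The stromelysin *Mmp10*, which degrades proteoglycans and laminin and activates other proenzymes, had no count in any of the 3 control libraries. It had 25, 33 and 30 counts in the DB2313 libraries, or 1.64 ± 0.290 CPM, and passed the filter on low counts only through these libraries. With a floor of 3 counts per library for the controls, its level was at least 9.38-fold higher with DB2313 (at least 6.21-fold with T cell marker scaling). The level was low: all *Mmp10* reads of a library numbered fewer than those of *Mmp9* in the same library. Of 1673 windows of 50 bases in its exons, 140 (8.37%) also occur in *Mmp3*, the gene of the related stromelysin 1. *Mmp3* itself had 0 counts in each control library and 4, 2 and 0 with DB2313.

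The elastase *Mmp12* was the most abundant of the 10 by CPM. It had 8530, 8549 and 7772 counts in the control libraries and 14149, 13112 and 14277 with DB2313. Every DB2313 library stood above every control. The level went from 481.6 ± 13.7 to 770.1 ± 5.18 CPM, with a log2 fold change of 0.68 (SE 0.032), short of the fold threshold. At the adjusted p alone, 20 of 24 tested macrophage markers were lower and 3 higher, against 24.6% and 20.8% of all tested genes. *Lyz2*, the lysozyme of macrophages and granulocytes, fell by 1.89 on the log2 scale from 7702 ± 133 CPM. The part that macrophage content played in the value of *Mmp12* was not tested. With library sizes set by the T cell markers, the fold change of *Mmp12* was 0.081 and that of *Mmp13* 1.11.

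Both membrane-anchored enzymes in the group were lower with DB2313. *Mmp14* (chr14:54431612-54445364), the transmembrane enzyme MT1-MMP that cuts collagen at the cell surface and activates the proenzyme of *Mmp2* together with TIMP2, had 1593, 1584 and 1441 counts in the control libraries and 411, 378 and 436 with DB2313. The 3 DB2313 libraries lay close together and well under the controls. Its level went from 89.5 ± 2.32 to 22.7 ± 0.864 CPM, 3.94-fold lower (log2 fold change −1.98, SE 0.059). *Mmp25*, or leukolysin (chr17:23628311-23645277), is held on the neutrophil membrane by a lipid anchor. It had 2494, 2310 and 2168 counts against 1173, 1111 and 1221. The level was 2.08-fold lower with DB2313, 65.0 ± 1.43 against 135.0 ± 2.94 CPM (log2 fold change −1.06, SE 0.042). With scaling by library size or by the upper quartile, its fold change was −0.96 and −0.99, inside the fold threshold.

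*Mmp19* (chr10:128790910-128800824), a secreted enzyme found in macrophages and in skin that cuts basement membrane proteins, had 458, 455 and 442 counts in the control libraries and 300, 259 and 302 with DB2313. The DB2313 libraries were all lower. Its level went from 26.3 ± 0.825 to 15.9 ± 0.669 CPM (log2 fold change −0.72, SE 0.083). The gene overlaps *Tmem198b* on the opposite strand over 789 exon bases, 22.3% of its own, and reads of the pair cannot be told apart there without strand. *Tmem198b* had 108 to 188 counts a library and a log2 fold change of −0.062 (SE 0.16).

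The inhibitors differed in opposite directions too. *Timp1* (chrX:20870166-20874735), an inducible inhibitor that binds the proenzyme of *Mmp9*, was barely read, with 25, 29 and 33 counts in the control libraries and 7, 11 and 16 with DB2313. The groups stood apart, but by few reads. *Timp1* passed the filter on low counts only through the control libraries, where it was higher. Its level was 1.70 ± 0.315 and 0.631 ± 0.246 CPM, with a log2 fold change of −1.41 (SE 0.38). *Timp1* lies within *Syn1* on the opposite strand with no shared exon base, and *Syn1* itself had 89, 60 and 69 counts against 23, 33 and 31 (log2 fold change −1.38, SE 0.25). *Timp2* (chr11:118301069-118355740), which both inhibits MMPs and helps MMP14 activate the proenzyme of *Mmp2*, had 857, 756 and 846 counts in the control libraries and 1068, 1081 and 1186 with DB2313. All 3 DB2313 libraries were higher. The level went from 47.7 ± 3.85 to 61.9 ± 3.56 CPM (log2 fold change 0.38, SE 0.064). The direction of *Timp2* rested on the scaling: with library sizes set by the T cell markers its fold change was −0.22, while the median over all genes was −0.58.

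The other genes of the family are those left after the 10 had been selected. As that was done with this contrast known, they are not an independent group. Of 17 further MMP and TIMP genes, 7 passed the filter on low counts, and their median log2 fold change was 0.54. At the adjusted p alone 4 rose and 2 fell, against 20.8% and 24.6% of all tested genes. Past both thresholds, 1 rose (*Mmp27*) and 2 fell (*Mmp2* and *Mmp23*), against 1.37% and 5.3% of all tested genes. *Mmp27*, a little-studied relative of the stromelysins, had 7, 10 and 14 counts in the control libraries and 84, 90 and 69 with DB2313 (log2 fold change 2.89, SE 0.30, adjusted p = 2.68e-08, edgeR). *Mmp27* passed the filter on low counts only through the DB2313 libraries, where it was higher, so nothing is read from its adjusted p. With at least 10 counts required in every sample it was not tested. *Mmp23*, an atypical membrane-bound MMP, had 153, 126 and 118 against 47, 30 and 32 (−1.92, SE 0.19, adjusted p = 1.43e-08, edgeR). Smaller rises were those of *Timp3*, an inhibitor bound to the matrix (0.54, SE 0.13, adjusted p = 0.00116, edgeR, but −0.058 with T cell marker scaling), and of *Mmp11*, or stromelysin 3 (0.65, SE 0.18, adjusted p = 0.00611, edgeR, but 0.050 and adjusted p = 0.811 with T cell marker scaling). *Mmp15*, a membrane-type MMP, had 36, 41 and 44 counts against 89, 60 and 53 (0.67, SE 0.24, adjusted p = 0.0268 in edgeR and 0.0847 in DESeq2). *Mmp15* also failed the adjusted p without control replicate 1, without control replicate 2, without DB2313 replicate 1 and with T cell marker scaling (0.075, adjusted p = 0.785, edgeR). *Mmp17* did not pass the test, with 11, 24 and 14 counts against 10, 26 and 17 (adjusted p = 0.930, edgeR). The remaining 10 genes had at most 11 counts in any library, and *Mmp16*, *Mmp1b* and *Timp4* had 0 in all 6.

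**Figure D2:**
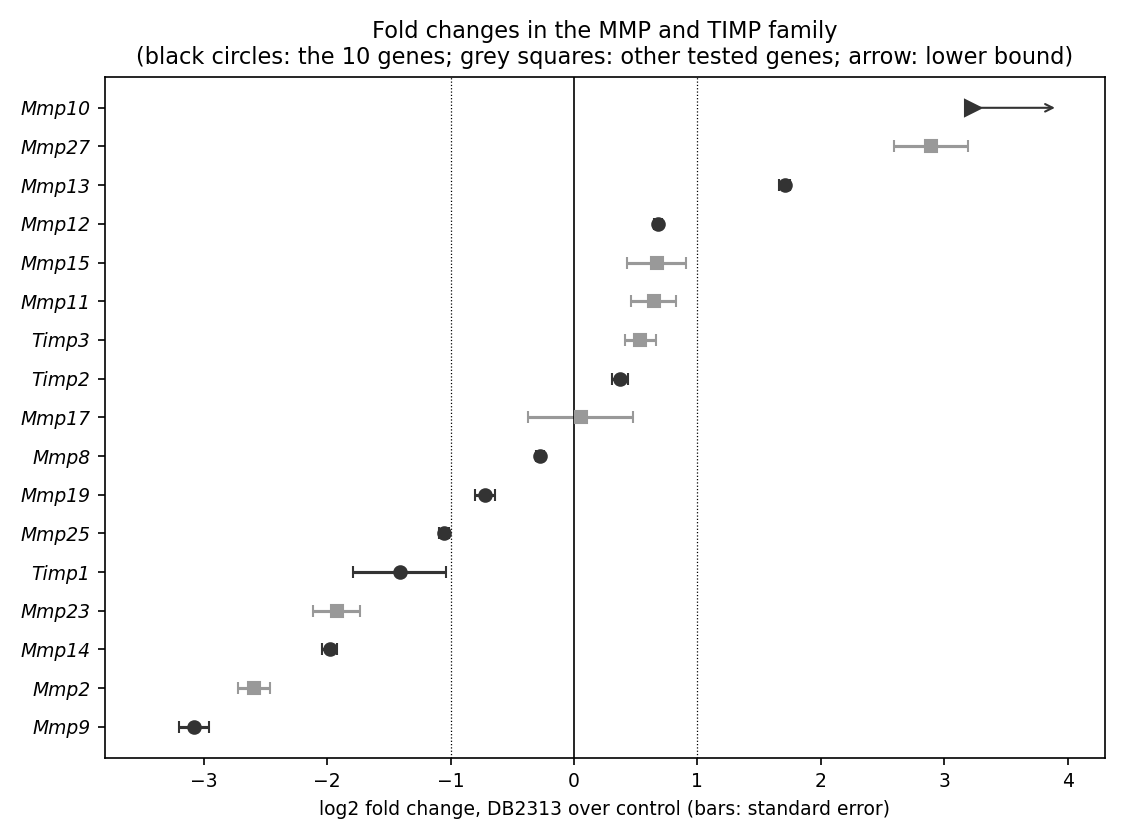
Log2 fold change (DB2313 over control) of the tested MMP and TIMP genes with bars of 1 standard error; black circles are the 10 selected genes, grey squares the other tested members, dotted lines the fold threshold of 1, and the triangle with an arrow the lower bound for *Mmp10*. *Mmp9* and *Mmp2* lie at the lower end (−3.08 and −2.59) and *Mmp10* at the upper end, at least 9.38-fold higher, followed by *Mmp27* and *Mmp13* (2.89 and 1.71).

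Of the 10 genes, *Mmp13*, *Mmp12*, *Mmp10* and *Mmp8* lie in the MMP cluster of chromosome 9, with 6 further MMP genes. In the coordinates of the deposited table, on GRCm38, the cluster runs from 7272514 to 7699585, 427.1 kb, and holds no other protein-coding gene of the table. In order along the chromosome lie *Mmp13*, *Mmp12*, *Mmp1b*, *Mmp3*, *Mmp1a*, *Mmp10*, *Mmp8*, *Mmp27*, *Mmp20* and *Mmp7*. *Mmp13* (bases 7272514 to 7283331), *Mmp12* (7344381 to 7369499), *Mmp10* (7502352 to 7510240) and *Mmp27* (7571396 to 7581885) were higher with DB2313, whereas *Mmp8* (7558456 to 7568485), between *Mmp10* and *Mmp27*, was lower. All 5 are on the forward strand. *Mmp1b*, *Mmp3*, *Mmp1a*, *Mmp20* and *Mmp7* had at most 5 counts in a library. *Mmp12* and *Mmp1b* share 157 exon bases (2.17% of those of *Mmp12*) on opposite strands, and *Mmp1b* had 0 counts.

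**Figure D3:**
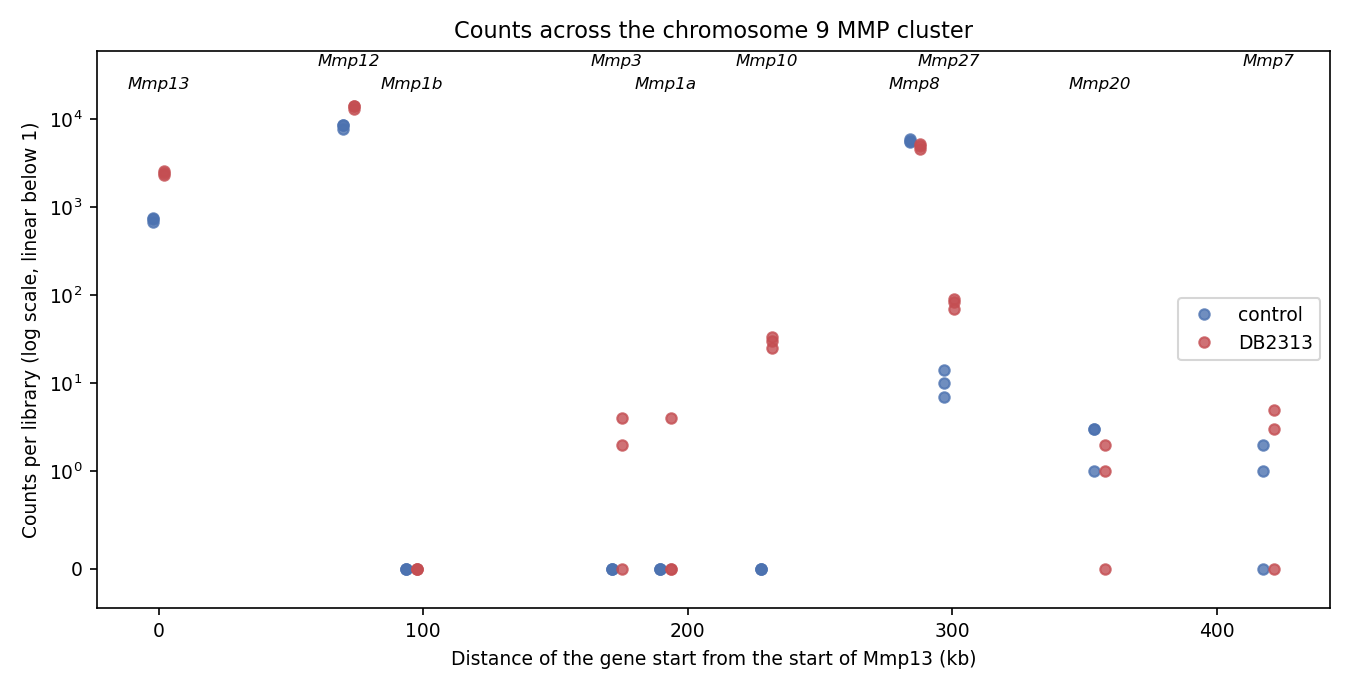
Counts per library (log axis, linear below 1) of the 10 MMP genes of the chromosome 9 cluster against the distance of each gene's start from that of *Mmp13* in kb; points are single libraries, blue for control and red for DB2313. *Mmp13*, *Mmp12*, *Mmp10* and *Mmp27* lie higher with DB2313 and *Mmp8* slightly lower, and the other 5 genes have at most 5 counts.

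The promoters of these genes are shown because neighbours in the cluster differed in direction. They are RefSeq sequences on GRCm38.p6, from the 250 bases before the annotated start, forward strand, printed without exon bases of GENCODE release 21, and the capitals mark 3 motifs, which were searched on both strands. GAGGAA is a core bound by Spi1. The letters TGAGTCA are the site of AP-1 factors, and the letters TATAAA are the promoter element that sets the start of many inducible genes. On the reverse strand a motif reads as its reverse complement, and the motifs did not overlap in the windows shown. *Mmp12* has 2 RefSeq starts, of which the second lies inside the gene.
Mmp10 (chr9:7502092-7502341): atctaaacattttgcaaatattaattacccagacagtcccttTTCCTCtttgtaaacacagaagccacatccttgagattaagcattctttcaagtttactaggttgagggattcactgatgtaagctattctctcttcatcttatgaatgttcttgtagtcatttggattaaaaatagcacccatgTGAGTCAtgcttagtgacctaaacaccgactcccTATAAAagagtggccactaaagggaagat
Mmp13 (chr9:7272264-7272513): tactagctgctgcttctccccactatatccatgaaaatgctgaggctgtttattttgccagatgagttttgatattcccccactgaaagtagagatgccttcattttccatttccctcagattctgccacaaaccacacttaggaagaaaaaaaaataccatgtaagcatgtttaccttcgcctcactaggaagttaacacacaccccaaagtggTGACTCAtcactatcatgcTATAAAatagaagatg
Mmp12, first start (chr9:7344147-7344380): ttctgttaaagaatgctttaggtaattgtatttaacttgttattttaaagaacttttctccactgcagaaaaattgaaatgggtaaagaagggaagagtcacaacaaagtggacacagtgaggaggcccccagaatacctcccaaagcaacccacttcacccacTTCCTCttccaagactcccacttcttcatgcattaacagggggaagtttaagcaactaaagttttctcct
Mmp12, second start (chr9:7347124-7347373): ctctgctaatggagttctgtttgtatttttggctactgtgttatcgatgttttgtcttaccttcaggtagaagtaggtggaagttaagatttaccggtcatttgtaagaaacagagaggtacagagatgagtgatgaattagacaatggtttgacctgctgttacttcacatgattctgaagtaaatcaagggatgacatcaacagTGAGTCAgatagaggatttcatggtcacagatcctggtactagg
Mmp8 (chr9:7558179-7558428): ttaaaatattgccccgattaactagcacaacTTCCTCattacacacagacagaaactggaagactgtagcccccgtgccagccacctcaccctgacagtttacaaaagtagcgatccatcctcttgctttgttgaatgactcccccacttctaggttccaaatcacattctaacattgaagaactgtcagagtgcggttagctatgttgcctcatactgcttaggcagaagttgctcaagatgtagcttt

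The motifs were searched in the whole 250 bases before each start. The AP-1 letters stood in the windows of *Mmp10* (63 to 57 bases before the start), *Mmp13* (35 to 29 bases before, on the reverse strand) and the second start of *Mmp12* (44 to 38 bases before). They were absent from that of *Mmp8*, which was lower with DB2313. They were also absent from that of its neighbour *Mmp27*, which was higher and whose window held none of the 3 motifs. Over 32851 promoter windows of RefSeq genes, 4.46% held them. They also stood in the windows of *Mmp1a*, *Mmp1b*, *Mmp3* and *Mmp7*, which had almost no counts. The GAGGAA core stood in the windows of *Mmp8*, *Mmp10*, *Mmp25* (in part over GENCODE exon bases) and the first start of *Mmp12*, and in 23.3% of all windows. TATAAA stood in those of *Mmp10* and *Mmp13*, and in 12.4% of all. It also stood in those of *Mmp1a*, *Mmp1b*, *Mmp3*, *Mmp7*, *Mmp20* and *Mmp21*, which had almost no counts. The GAGGAA core stood in that of *Mmp7* too. Windows were given for 8 of the 10 genes, not for *Mmp9* and *Mmp19*, and those of *Mmp14*, *Timp1* and *Timp2* held none of the 3 motifs. A match of letters is a description, not evidence of binding.

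Per kilobase of gene length, the order of the 10 genes was not the same in both groups. In the control group, *Mmp8* led with 136 ± 1.48 CPM per kb, followed by *Mmp12* (66.6 ± 1.89), *Mmp25* (25.5), *Mmp13* (15.7), *Mmp14* (15.02), *Timp2* (12.2), *Mmp19* (7.44), *Mmp9* (7.31), *Timp1* (1.91) and *Mmp10* (0). The ranges of *Mmp19* and *Mmp9* overlapped. With DB2313, *Mmp8* (113 ± 4.35) and *Mmp12* (106 ± 0.716) came first, followed by *Mmp13* (51.4 ± 1.23), now ahead of *Mmp25*, and then *Timp2* (15.9), *Mmp25* (12.3), *Mmp19* (4.51), *Mmp14* (3.81), *Mmp10* (0.952), *Mmp9* (0.861) and *Timp1* (0.711). There the ranges of *Mmp10* and *Mmp9*, and of *Mmp9* and *Timp1*, overlapped.

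The sum over all 23 MMP genes was close between the groups with TMM scaling, and its makeup differed. The sum was 286.7, 290.7 and 288.4 CPM per kb in the control libraries and 298.4, 297.8 and 304.8 with DB2313. The ratio of the group means was 1.04, but 0.688 with T cell marker scaling, a setting added to this sum after the data were seen. The share of *Mmp8* in it went from 47.2 ± 0.479% to 37.5 ± 0.969%, and that of *Mmp12* from 23.1 ± 0.507% to 35.4 ± 0.238%. *Mmp13* went from 5.45% to 17.1%, while *Mmp25* (8.82% to 4.08%), *Mmp14* (5.202% to 1.27%), *Mmp2* (3.26% to 0.519%) and *Mmp9* (2.53% to 0.286%) took smaller shares. These ratios within a library do not depend on how libraries are scaled. *Mmp12* stood at 0.489 of the level of *Mmp8* in the control group and at 0.946 with DB2313.

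**Figure D4:**
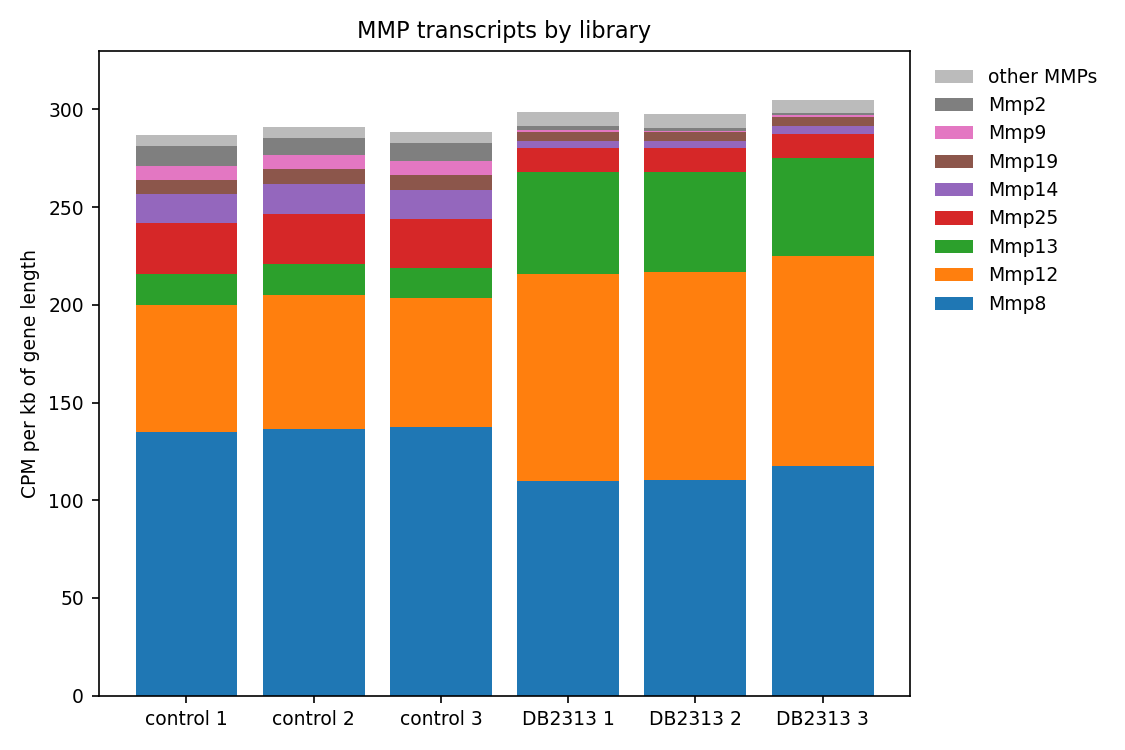
Summed level of the MMP genes in each of the 6 libraries, in CPM per kb of gene length, stacked by gene from *Mmp8* at the bottom to the remaining MMP genes in light grey at the top. The bars reach 286.7 to 290.7 in the control libraries and 297.8 to 304.8 with DB2313, where *Mmp12* and *Mmp13* take larger parts and *Mmp25*, *Mmp14*, *Mmp9* and *Mmp2* smaller ones.

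The inhibitors were a small fraction beside the enzymes. The 4 TIMP genes summed to 15.2 ± 1.34 CPM per kb in the control group and 18.1 ± 1.23 with DB2313 (a ratio of 1.19, or 0.788 with T cell marker scaling), and *Timp2* made up 80.5% and 87.6% of that sum. *Timp1* made up 12.5% and 3.86%, and *Timp3* 6.997% and 8.52%. The MMP sum over the TIMP sum was 19.4, 20.5 and 17.2 in the control libraries and 17.7, 16.2 and 15.8 with DB2313. The groups overlapped, so the ratio did not separate them.

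The spread between libraries was near counting error for the scarce genes. For *Timp1* the coefficient of variation was 18.6% in the control group, where counting alone gives 18.6%, and 38.9% with DB2313, where counting gives 29.7%. For *Mmp10* with DB2313 it was 17.7%, and counting gives 18.5%. *Mmp12*, with many reads, varied by 2.84% and 0.673% against 1.10% and 0.850% from counting.

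Genes that activate, bind or clear MMPs were mostly lower with DB2313. Of 18 such genes, 13 were tested, with a median log2 fold change of −0.35. At the adjusted p alone 1 rose and 8 fell, against 20.8% and 24.6% of all tested genes. Past both thresholds fell *Lcn2*, *Plaur* and *Serpinb2*. The fold change of *Plaur* was inside the fold threshold with library size scaling (−0.94), with upper quartile scaling (−0.97) and without DB2313 replicate 2 (−0.99994), and that of *Serpinb2* without DB2313 replicate 2 (−0.98). *Lcn2*, neutrophil gelatinase-associated lipocalin, forms a complex with MMP9 and went from 235.9 ± 7.75 to 50.5 ± 3.07 CPM (−2.22, SE 0.045, adjusted p = 3.14e-21, edgeR). *Plaur*, the urokinase receptor that gathers plasmin activity at the cell surface, went from 137.4 ± 3.26 to 67.0 ± 2.87 CPM (−1.04, adjusted p = 2.54e-15, edgeR). *Serpinb2*, an inhibitor of urokinase, went from 13.7 ± 1.04 to 6.25 ± 1.27 CPM (−1.13, adjusted p = 3.35e-07, edgeR). *Furin*, the convertase that cuts the prodomain of membrane-type MMPs, fell by 0.37 on the log2 scale (adjusted p = 5.14e-09, edgeR), and was named after its value was seen.

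In the related ADAM and ADAMTS proteases, 16 of 32 genes were tested, and the median was −0.16. At the adjusted p alone 2 rose and 6 fell, against 20.8% and 24.6% of all tested genes. *Adam8*, a sheddase of leukocytes, went from 298.2 ± 7.0 to 119.9 ± 6.14 CPM (−1.31, adjusted p = 3.74e-18, edgeR). *Adam23*, which lacks protease activity, went from 63.0 ± 1.83 to 22.4 ± 1.33 CPM (−1.49, adjusted p = 6.06e-15, edgeR). Both passed the fold threshold.

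Of 25 matrix genes whose products MMPs cleave, 17 were tested, with a median of −0.24. At the adjusted p alone 2 rose and 5 fell, against 20.8% and 24.6% of all tested genes, and nothing is read from these counts. The proteoglycan *Vcan* went from 24.1 ± 0.413 to 11.1 ± 0.354 CPM (−1.11, adjusted p = 3.84e-10, edgeR) and fibronectin, *Fn1*, from 13.8 ± 0.309 to 5.82 ± 0.446 CPM (−1.24, adjusted p = 1.02e-08, edgeR). Perlecan, *Hspg2*, was low, at 2.66 ± 0.289 and 1.20 ± 0.416 CPM (−1.14, adjusted p = 0.00300, edgeR), and at −0.99 without DB2313 replicate 2, inside the fold threshold.

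Transcription factors of the AP-1, Ets and Runx families, known to act at MMP promoters, were all tested. Of 21 genes, 2 rose (*Jund* and *Ets1*) and 11 fell in edgeR's quasi-likelihood test at the adjusted p alone, against 20.8% and 24.6% of all tested genes. The median was −0.16, and 16 had an unadjusted p under 0.05. Past both thresholds there were 0, also with DESeq2. *Spi1*, the target of DB2313, named after its value was seen, had 5026, 4983 and 4756 counts in the control libraries and 2941, 2715 and 2731 with DB2313. Its level fell by 0.88 on the log2 scale (SE 0.037, adjusted p = 2.58e-15, edgeR).

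**Figure D5:**
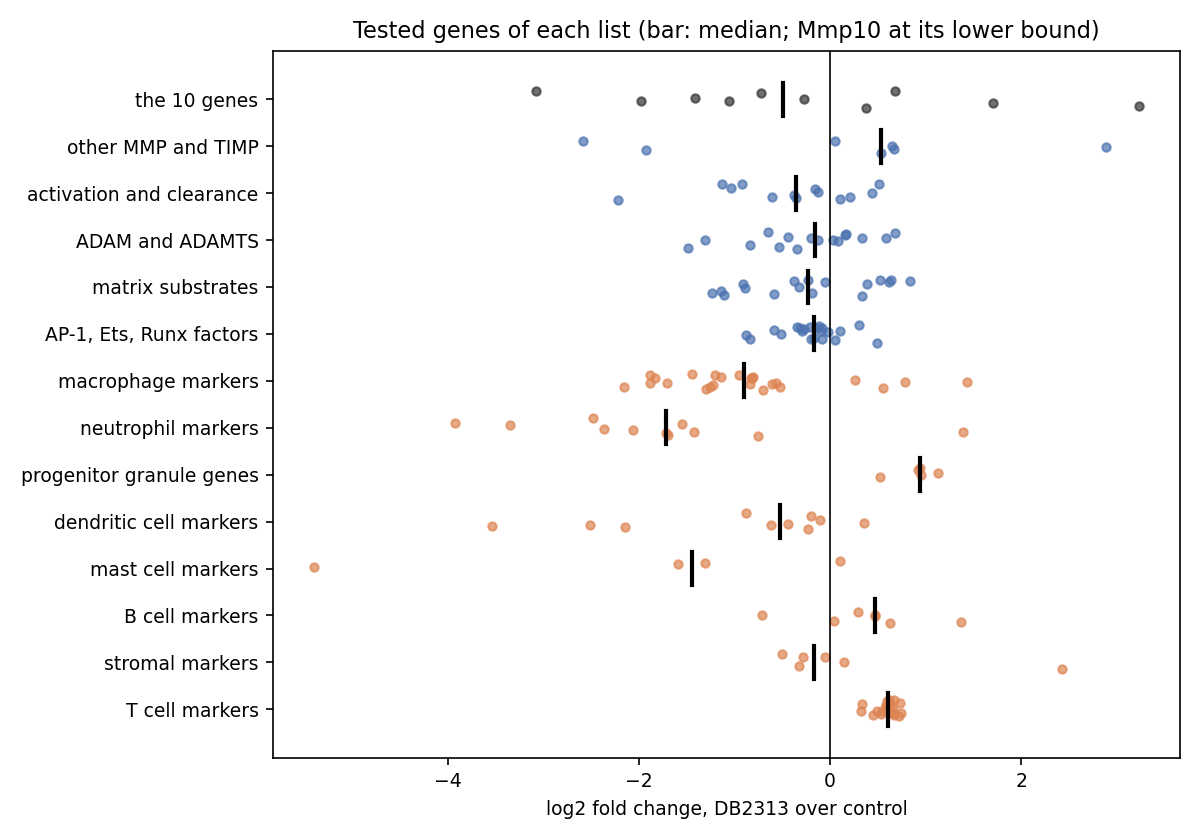
Log2 fold changes (DB2313 over control) of the tested genes of each list, 1 point per gene (spread vertically for sight only), with a bar at each list's median and *Mmp10* at its lower bound. The T cell markers and progenitor granule genes lie above 0 (medians 0.61 and 0.94), and most neutrophil, mast cell and macrophage markers lie below (medians −1.72, −1.45 and −0.90).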

How the data were processed

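RNA was sequenced from 3 control and 3 DB2313 libraries of cocultured CD8T cells. The authors deposited raw read counts per gene. The submitters' processing notes name CASAVA 1.8, HISAT2 2.0.5 and featureCounts 1.5.0-p3, while the study's methods name LifeScope, and the build and strand setting are not given in the sources used here. The gene coordinates of GENCODE mouse release 21 (GRCm38) matched those of the table for 98.3% of the genes in both. Without strand, reads of overlapping genes cannot be told apart. The groups come from the labels.

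From the counts, edgeR 4.0.16 in R 4.3.3 (filterByExpr, TMM, glmQLFit, glmQLFTest, Benjamini-Hochberg adjustment) was fitted over all genes with the group as the only term, and calls needed an adjusted p under 0.05 and an absolute log2 fold change of at least 1. CPM values were scaled by TMM, and CPM per kb used the deposited gene length. For *Mmp10* a bound was computed with a floor of 3 counts per library, 1.81e-05% of the smallest library, which covers counting error only. The scripts were tested on simulated data. Alternatives were DESeq2 1.42.0, scaling by library size, upper quartile or T cell markers, no filter on low counts, a minimum of 10 counts in each library, the replicate block, omission of single libraries, and calls by adjusted p only. Scaling of the summed MMP and TIMP levels was added after the data were seen.

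The members and lists were chosen with earlier results of these data known. Named genes are the 10 members, the other tested MMP and TIMP genes, up to 6 called genes of highest mean CPM per pathway list, and the 2 marker genes of highest mean CPM per list. Protein sequences were not analysed here.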

Additional observations from a re-analysis of the deposited data

How the results depend on the processing

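Of 530 comparisons of single genes with an alternative, 487 had an unchanged direction and stayed on one side of the adjusted p threshold (for the 10 genes, moved by less than the replicate spread), 19 moved further, 10 lost the adjusted p and 14 turned direction. By both thresholds, 8 comparisons lost a call (*Mmp25* and *Plaur* with library size and upper quartile scaling, *Elane* with T cell marker scaling at 0.53, and *Plaur*, *Serpinb2* and *Hspg2* without DB2313 replicate 2) and 5 gained one. The scaling by T cell markers shifted the median of all genes from 0.019 to −0.58. Under it 51 genes were called higher and 2551 lower. It also called 5 activation or clearance genes, 6 ADAM or ADAMTS genes, 6 matrix genes and 4 AP-1, Ets or Runx genes lower. It turned *Timp2* to −0.22, *Timp3* to −0.058, *Mmp17* to −0.54, *Cd79b* to −0.13, *Pecam1* to −0.45 and *Trbc2* to −0.057. *Trbc2* and *Lck* are among the markers that set this scaling, so nothing is read from their values there. The scaling moved all genes down together, so these turns of direction are not separate results. The MMP sum went from 1.04 to 0.688 and the TIMP sum from 1.19 to 0.788 of the control level under it, and the MMP sum to 1.11 with library size and 1.09 with upper quartile scaling. *Col1a2* was at 0.039 with library size scaling and 0.0066 with upper quartile scaling. Requiring at least 10 counts in every sample left 103 genes called higher, 0 other MMP or TIMP genes called higher and no value for *Mmp10*, *Timp1* and *Mmp27*. The adjusted p alone gave 3096 higher and 3667 lower. Leaving out 1 library each time, 1 to 3 activation or clearance genes were called lower (1 without DB2313 replicate 2), 0 to 1 matrix genes higher (1 without control replicate 3) and 2 to 4 lower (2 without DB2313 replicate 2, 4 without DB2313 replicate 3). *Mmp17* ranged from −0.37 to 0.44 (below 0 when control 1, control 3 or DB2313 2 was left out) and *Col1a2* from −0.30 to 0.14 (above 0 when control 2, control 3 or DB2313 1 was left out). For these the cause was not tested. Samples with the same number did not deviate together (correlations −0.0047, −0.019 and −0.10), and a fit with the replicate block called 201 genes higher and 790 lower. With 3 libraries a group, genes of few reads such as *Timp1*, *Mmp10* and *Mmp17* carry wide errors.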
